A study of Mus musculus with 3 samples.

Results

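The annexin genes described here are the 8 rows named Anxa1, Anxa2, Anxa3, Anxa4, Anxa5, Anxa6, Anxa7 and Anxa11 among the 32285 genes of a single-cell RNA sequencing series of mouse neural progenitors. They were chosen by symbol and not by a cut on measured values, but with earlier results of these data known. All 8 had UMIs (unique transcript molecules counted) in each of the 3 libraries. Progenitors from postnatal day 1 mice, strain not given in the labels, were grown as neurospheres with 20 ng/mL epidermal growth factor, plated, and cultured for 16 h. One group was the control. Another was electroporated in bulk with a Nucleofector, and the remaining group received localized electroporation, 400 pulses of 20 V on the device that carried its cells. All were collected 4 h after treatment. The surface under the control cells is not stated, so effects of the device and of the pulses cannot be told apart. No cargo and no transgene is named in the labels. Every group consisted of 1 library. Differences therefore have no replicate check, no test was made, and intervals cover counting error only.

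Annexins are calcium-dependent proteins that bind negatively charged phospholipids of membranes. When the plasma membrane is torn, calcium enters, annexins gather at the wound edge, and several of them link or clamp membranes while the hole is closed. Electroporation opens the membrane by electric pulses, and annexin A1, A2, A5 and A6 are among those studied most in membrane repair. In the developing brain annexins are found in glia and progenitors, and Anxa5 protein is widely used as a stain for exposed phosphatidylserine.

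The sequence just before the start of Anxa2 is shown because it was the abundant member furthest above control, with that of Anxa5 beside it as an abundant member that was under 2-fold. RefSeq and GENCODE place the starts differently. Of the 250 bases before the RefSeq start (build GRCm38.p6), 63 of Anxa2, 7 of Anxa5 and all 250 of Anxa1 lie inside the GENCODE gene span. Printed are the bases that lie before both starts, 187 of Anxa2 and 243 of Anxa5, read 5′ to 3′ on the gene's own strand, with a match to TGANTCA (the AP-1 motif) in capitals.
Anxa2 chr9:69453433-69453619, plus strand: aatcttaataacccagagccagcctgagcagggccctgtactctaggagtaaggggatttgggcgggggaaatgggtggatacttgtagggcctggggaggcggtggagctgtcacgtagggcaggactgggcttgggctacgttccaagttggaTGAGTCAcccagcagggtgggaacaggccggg
Anxa5 chr3:36475895-36476137, minus strand: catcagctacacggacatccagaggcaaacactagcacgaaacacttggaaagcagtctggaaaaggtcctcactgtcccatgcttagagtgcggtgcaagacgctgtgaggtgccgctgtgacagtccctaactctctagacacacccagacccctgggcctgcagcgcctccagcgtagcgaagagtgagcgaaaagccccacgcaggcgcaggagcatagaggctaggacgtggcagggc
RefSeq windows of 300 bases (250 before and 50 after the start) were matched for 6 of the 8 members, with 8 windows in all, and 8 motifs were searched on both strands with overlaps allowed. TATAAA was found in the windows of Anxa1 and Anxa2 and in none of the other 6 windows, and it was present in 13.6% of 32851 windows of that length. For both genes that match lies inside the GENCODE gene span, past the printed stretch. TGANTCA was found in the Anxa2 window alone among these 8, and in 7.81% of all windows. GGAATG (the TEAD motif) was found in the Anxa1 window alone among these 8, and in 14.7% of all. TGACGTCA (the CRE), the interferon-stimulated response element and CCAAT had no match in any of the 8 windows, against 1.79%, 3.44% and 37.4% of all windows. The NF-kB motif matched in the Anxa1 window and in 1 of the Anxa4 windows, and in 20.7% of all. GGGCGG (the GC box) matched at least once in the windows of Anxa2, Anxa4, Anxa7 and Anxa11, and in 35.7% of all. These are letter matches and not measured sites.

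After the cell filter (at least 3000 UMIs and 500 genes, at most 20% mitochondrial UMIs), 6091 control, 5531 bulk and 6298 localized cells were kept, with median depths of 9542, 11644 and 10980.5 UMIs. Their UMIs numbered 61775756, 77491732 and 76177026. Libraries shared few cell barcodes: 9 between control and bulk, 6 between control and localized, and 7 between bulk and localized. The markers of neural stem or progenitor cells were all at 5 CPM (UMIs per 1000000 UMIs of the library's cells) or more in each library, 10 of 10. Of 7 microglia or macrophage markers, 5 were at 0 UMIs in each library, and no marker of endothelial cells, of mural cells or fibroblasts, or of erythroid cells reached 5 CPM. Summed astrocyte markers stood at 484.5 CPM in control, 533.6 CPM in bulk and 989.8 CPM in localized electroporation, and oligodendrocyte precursor markers at 1474, 1390.1 and 1852 CPM. Of the astrocyte sums, Apoe alone supplied 131.2, 170.1 and 497 CPM. In localized over control Slc1a2 was the only astrocyte marker that was lower, at 26.7 against 31.5 CPM. The part of these marker differences in the annexin results over all cells was not tested. Ratios within clusters are given further on.

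Anxa2, Anxa5, Anxa6 and Anxa3 were the abundant members, Anxa7 was intermediate, and Anxa1, Anxa4 and Anxa11 were near the lower end of detection. A UMI marks the 3′ end of 1 transcript, so levels were compared between genes without scaling by length. In control the order by level was Anxa5 at 61.4 CPM, Anxa6 at 56.0 CPM, Anxa2 at 43.6 CPM, Anxa3 at 33.6 CPM, Anxa7 at 7.27 CPM, Anxa11 at 2.10 CPM, Anxa4 at 1.15 CPM and Anxa1 at 0.291 CPM. No pair of neighbours in that order had overlapping counting intervals. In both treated libraries Anxa2 stood first, having been the third in control. The neighbours that overlapped were Anxa11 and Anxa1 in bulk (2.18 and 2.00 CPM) and Anxa11 and Anxa4 in localized electroporation (1.86 and 1.80 CPM). Together the 8 genes made up 0.0205% of control UMIs, 0.031% of bulk UMIs and 0.0248% of localized UMIs, and Anxa2 supplied 21.2%, 39.8% and 35.5% of that sum. Without Anxa2 the other 7 genes summed to 161.8 CPM in control, 186.8 CPM in bulk and 159.9 CPM in localized electroporation.

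**Figure D1:**
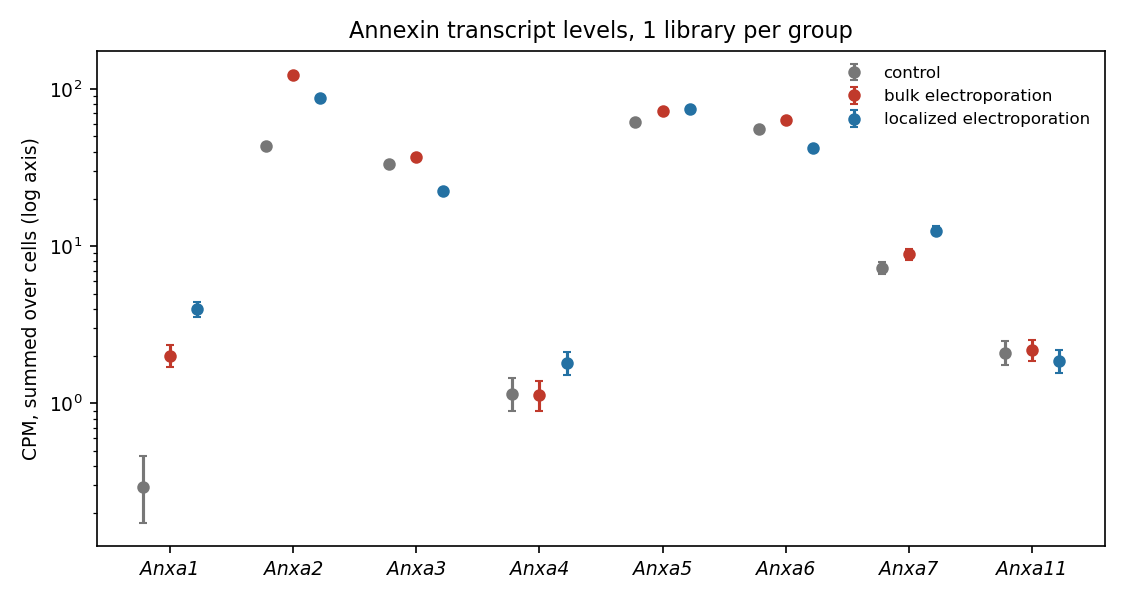
Transcript level of each annexin gene in CPM (vertical log axis), summed over the cells of the control (grey), bulk (red) and localized (blue) library, with exact Poisson intervals at 95% as bars. Anxa2 lies at 43.6 CPM in control and at 124 and 88.1 CPM in the treated libraries, and Anxa1 at 0.291, 2.00 and 3.96 CPM.

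Anxa2 was the abundant member with the largest difference. Its protein forms a complex with S100a10 that joins membranes to each other and to actin. The gene (ENSMUSG00000032231, GRCm38 chromosome 9, 69453620 to 69491795, plus strand, protein coding) stood at 43.6 CPM in control (exact Poisson interval 42.0 to 45.3), 124 CPM in bulk (121 to 126) and 88.1 CPM in localized electroporation (86.0 to 90.2). These rest on 2696, 9581 and 6709 UMIs. The 3 intervals are apart, with bulk highest and control lowest. The ratio of bulk over control was 2.83 (2.71 to 2.96), and that of localized over control 2.02 (1.93 to 2.11). Both comparisons use the same control library. On the log2 scale with 1 CPM added, the scale of all log2 ratios below unless stated, these were 1.48 and 1.00.

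Anxa1, whose protein is also an anti-inflammatory signal through formyl peptide receptors, had the largest ratios of the family without a pseudocount, from very few transcripts. The gene (ENSMUSG00000024659, GRCm38 chromosome 19, 20373428 to 20390944, minus strand) had 18 UMIs in control, against 155 and 302 in the bulk and localized libraries. Its levels were 0.291 CPM (0.173 to 0.461), 2.00 CPM (1.70 to 2.34) and 3.96 CPM (3.53 to 4.44). The libraries did not overlap in these intervals, and here localized electroporation was the highest. Without a pseudocount the ratio was 6.86 (4.20 to 11.9) for bulk over control and 13.6 (8.46 to 23.3) for localized over control, and the log2 ratios with 1 CPM added were 1.22, below that of Anxa2, and 1.94. The formyl peptide receptor genes Fpr1 and Fpr2 were below 5 CPM in every library.

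The comparison of bulk electroporation with control had 2 of 8 members higher by 2-fold or more, Anxa1 and Anxa2, and 0 lower by that factor. Among the 5810 genes that reached 20 CPM in control or bulk, 1.2% differed 2-fold or more, 0.602% being higher and 0.602% lower. Anxa2, Anxa3, Anxa5 and Anxa6 met that minimum, and of these 4 only Anxa2 was past 2-fold; 15 of the 5810 genes had a higher ratio than Anxa2. The median log2 ratio of the 8 members was 0.20, against 0.07 over the 5810 genes. Above 0 were 7 of 8 members and 62.0% of those genes. The sets are unlike, since members below the 20 CPM minimum are counted among the 8. Anxa5, whose protein forms a lattice on exposed phosphatidylserine, had 72.1 CPM in bulk against 61.4 CPM in control, a log2 ratio of 0.23. Anxa7, whose protein binds the calcium sensor Pdcd6, had 0.25, Anxa6 0.18, Anxa3 0.14, Anxa11 0.04 and Anxa4 -0.02. Apart from Anxa1 and Anxa2, each member was within 1.22-fold of control in bulk (without a pseudocount), and for Anxa4 and Anxa11 the counting interval of the ratio included equality.

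In the comparison of localized electroporation with control the members went both ways. Anxa1 alone, 1 of 8, was higher by 2-fold or more, and 0 were lower by that factor. Among the 5906 genes that reached 20 CPM in control or localized electroporation, 2.24% differed 2-fold or more, 1.22% being higher and 1.02% lower. Of the 4 members that met that minimum 0 were called, Anxa2 lying at the limit with 72 genes above it. Anxa7 (ENSMUSG00000021814, chromosome 14) stood at 12.6 CPM (11.8 to 13.4) while control had 7.27 CPM (6.61 to 7.97), which gives a log2 ratio of 0.72. Anxa4, whose protein binds and curves membranes, had 0.38 from 137 and 71 UMIs, and Anxa5 0.29.

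Anxa3 and Anxa6 were lower in the localized library than in either of the others. Anxa3 (ENSMUSG00000029484, GRCm38 chromosome 5, 96793339 to 96845966, plus strand, protein coding) had 33.6 CPM in control (32.1 to 35.0), 37.1 CPM in bulk (35.8 to 38.5) and 22.3 CPM in localized electroporation (21.3 to 23.4). Anxa6 (ENSMUSG00000018340, GRCm38 chromosome 11, 54979108 to 55033445, minus strand), which codes for the annexin with a duplicated core, stood at 56.0 CPM (54.2 to 57.9), 63.4 CPM (61.7 to 65.2) and 42.2 CPM (40.8 to 43.7). For each gene the localized interval lay below those of the other libraries. The log2 ratios of localized over control were -0.57 for Anxa3 and -0.40 for Anxa6, and 180 and 371 of the 5906 genes were lower. Anxa11, whose protein joins RNA granules to lysosomes, had -0.12 with a counting interval of the ratio that included equality. The median of the 8 members was 0.33, against 0.09 over all 5906 genes, but these are unlike sets. Only 4 of the 8 met the 20 CPM minimum of those genes. These were Anxa2 (1.00), Anxa5 (0.29), Anxa6 (-0.40) and Anxa3 (-0.57), so the family was not shifted as a whole.

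**Figure D2:**
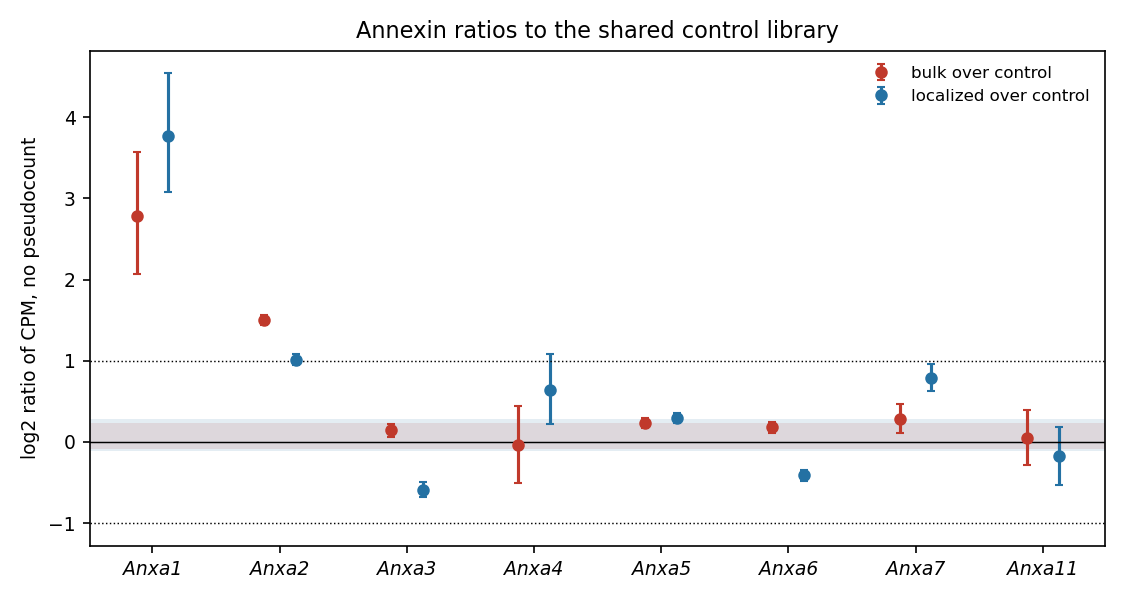
Log2 ratio of CPM without a pseudocount (vertical axis) for each annexin gene, bulk over control (red) and localized over control (blue). Bars are counting intervals at 95%, and dotted lines mark 2-fold. Shaded bands hold the middle 50% of genes that reached 20 CPM in either library compared, with 1 CPM added, unlike the points. Anxa1, Anxa2 and Anxa7 lie above the bands in both comparisons, and Anxa5 lies just above their upper edges. In localized over control only, Anxa4 lies above the band, and Anxa3, Anxa6 and Anxa11 lie below it. The bars of Anxa4 and Anxa11 there reach into the band.

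Between the electroporation methods, 0 of 8 members were at least 2-fold apart, against 1.58% of 6002 genes (0.95% higher in bulk and 0.633% lower), and 4 members were above and 4 below 0. Anxa3 (log2 ratio 0.71), Anxa6 (0.58) and Anxa2 (0.48) were higher in bulk, and 130, 207 and 296 of the 6002 genes had higher ratios than these 3. For Anxa2 this order was not seen in cells under 12000 UMIs, where localized electroporation had 55.9 and 103 CPM and bulk 43.7 and 99.8 CPM in the ranges described further on. Anxa1 (-0.73), Anxa7 (-0.46) and Anxa4 (-0.40) were lower in bulk. Anxa5 (ENSMUSG00000027712, GRCm38 chromosome 3, 36448923 to 36475894, minus strand) was the steadiest abundant member here. Over all cells it stood at 72.1 CPM in bulk (70.2 to 74.0) and 75.2 CPM in localized electroporation (73.2 to 77.1), a ratio of 0.959 (0.924 to 0.995). Within the clusters described further on, its log2 ratio was above 0 in 0 of 7, from -0.77 to -0.001. The counting interval excluded 0 in clusters 0, 4, 5 and 6.

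The share of cells with a UMI was compared after each cell had been thinned at random to 3000 UMIs. Anxa2 was then found in 10.4% of control cells (exact Clopper-Pearson interval 9.68 to 11.2), 22.8% of bulk cells (21.7 to 23.9) and 19.2% of localized cells (18.2 to 20.2). Without thinning the shares were 26.9%, 52.0% and 44.3%. Thinned cells that held Anxa2 had on average 1.18 UMIs of it in the control library, against 1.36 and 1.38 in the bulk and localized libraries. Both the share of cells and the UMIs per such cell were higher in the treated libraries. Anxa2 per UMI of thinned cells had log2 ratios of 1.30 and 1.09 to control, and 0.22 for bulk over localized electroporation. Anxa5 was found in 13.8%, 17.6% and 18.0% of thinned cells, and Anxa6 in 14.0%, 14.6% and 10.8%. Anxa3 was found in 6.76%, 7.92% and 4.40%, and Anxa7 in 2.09%, 2.40% and 3.37%. Anxa1 was found in 0.0821% of thinned control cells (0.0267 to 0.191), 0.434% of bulk cells (0.278 to 0.645) and 1.14% of localized cells (0.896 to 1.44). The thinned shares of Anxa4 and Anxa11 were at most 0.333% and 0.723%, with overlapping intervals across libraries. At this depth 63.0% of control, 52.3% of bulk and 56.8% of localized cells held no UMI of any member, so most cells cannot be classed by annexin content.

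Annexin transcripts in barcodes of 10 to 100 UMIs, which are mostly empty droplets, give the level of free RNA. Anxa2 stood there at 26.7 CPM in control, 72.3 CPM in bulk and 69.7 CPM in localized electroporation, which is 0.612, 0.584 and 0.792 times its level in cells. For Anxa5 these multiples were 0.468, 0.613 and 0.861, and for Anxa6 0.799, 0.877 and 0.916. In localized electroporation Anxa3 and Anxa7 had 0.972 and 0.948. Anxa1 had 0, 5 and 14 UMIs in these barcodes of the control, bulk and localized libraries. Its localized level there, 5.06 CPM (2.77 to 8.49), was 1.28 times that in cells, and its bulk level 0.682 times. Before thinning, its UMIs lay in 108 bulk and 181 localized cells, with at most 11 and 7 in 1 cell. How far its shares of cells reflect expression in those cells was not tested. No cell class here is known to lack annexins, so the contribution of free RNA to these shares was not tested. In control, the oligodendrocyte precursor-like clusters described next held the lowest Anxa2 shares. Anxa2 was found there in 0.926% and 1.38% of thinned control cells of clusters 3 and 6, at median depths of 4994.5 and 7930.5 UMIs, against 18.4% in cluster 0, at 9540 UMIs.

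The cells formed 10 clusters, found without the annexins and their partner genes, of which 9 had at least 50 cells in some library. Cluster 0, the largest, was led by Apoe, Fbxo32 and Abca1 and had the astrocyte markers Apoe and Aqp4 among its 10 leading genes. Clusters 1 and 2 were led by genes of DNA replication (Ccne2, Ung, Cdc6) and of mitosis (Gas2l3, Pif1, Cenpf), cluster 4 by Cdc20 and Cenpa, and cluster 5 by Gdf15, Hmox1 and histone genes. Clusters 3 and 6 were oligodendrocyte precursor-like (Pdgfra, Lhfpl3) and cluster 8 was oligodendrocyte-like (Enpp6, Mbp). Cluster 7, led by Ifit3, Ccl5 and Ifit1, held 507 bulk cells against 24 control and 36 localized cells, and cluster 5 held 877 control, 224 bulk and 70 localized cells. Names were rebuilt here from markers.

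Anxa2 was high in cluster 0 and low in the oligodendrocyte-lineage clusters of each library in which they were measured. In cluster 0 it stood at 72.0 CPM in control (68.1 to 76.1), 182 CPM in bulk (176 to 188) and 160.3 CPM in localized electroporation (154.9 to 165.7). In cluster 3 it stood at 5.81 CPM (3.89 to 8.35), 37.7 CPM (32.4 to 43.5) and 18.7 CPM (15.6 to 22.2), and in cluster 6 at 4.04, 12.05 and 11.2 CPM. Cluster 5 was alike or higher than cluster 0 in the treated libraries, at 191 CPM in bulk and 159 CPM in localized electroporation against 43.4 CPM in control, and cluster 7 of bulk had 179 CPM. The log2 ratio of bulk over control was above 0 in 7 of 7 clusters with enough cells in both libraries, from 0.87 in cluster 1 to 2.50 in cluster 3. That of localized over control was above 0 in 8 of 8, from 0.60 in cluster 1 to 1.96 in cluster 8, where control had 3 Anxa2 UMIs. The counted Anxa2 level was thus higher in the treated libraries within each of these clusters. Free Anxa2 RNA in the mostly empty droplets went the same way, at 26.7 CPM in control, 72.3 CPM in bulk and 69.7 CPM in localized electroporation. Levels in clusters 3 and 6 were below these in each library, and those in cluster 0 were above them. The part of free RNA in the differences within clusters was not tested. Without cluster 7, an alternative chosen after the data were seen, the log2 ratio of bulk over control for Anxa2 was 1.34 over all cells.

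Anxa5 followed a like order of clusters at smaller ratios. It ranged in control from 7.41 CPM in cluster 6 to 93.1 CPM in cluster 0, in bulk from 7.47 to 103 CPM and in localized electroporation from 13.4 to 120.0 CPM in the same clusters. Its ratio over control was above 0 in 7 of 7 clusters for bulk (0.01 to 0.89) and in 7 of 8 for localized electroporation (-0.03 to 0.96). The counting interval included 0 in clusters 1, 2 and 6 for bulk and in clusters 1, 2 and 8 for localized electroporation. Anxa7 over control was above 0 in 8 of 8 clusters for localized electroporation, from 0.48 to 1.11, with intervals that included 0 in clusters 3, 5, 6 and 8. Clusters of 1 pair of libraries are not replicates.

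Anxa6 lay between 16.7 and 70.8 CPM across control clusters. Its lower level in the localized library was seen in clusters 0, 1, 2, 4 and 5, the clusters outside the oligodendrocyte lineage with enough cells in both libraries. The localized-over-control log2 ratio was -0.53 in cluster 0, -0.43 in cluster 1, -0.74 in cluster 2, -0.35 in cluster 4 and -0.63 in cluster 5. It was 0.07, 0.28 and 0.53 in clusters 3, 6 and 8, the oligodendrocyte-lineage clusters, where each counting interval included 0. In cluster 8 it rested on 9 control and 46 localized UMIs. Anxa3 was lower in cluster 0 of the localized library, at 23.2 CPM against 47.8 CPM in control and 49.8 CPM in bulk, with log2 ratios of -1.01 to control and 1.07 for bulk over localized electroporation. Localized over control for Anxa3 was above 0 in 2 of 8 clusters. Outside cluster 0 its counting interval excluded 0 in cluster 1 alone, with a log2 ratio of -0.30. In the mitotic cluster 2 Anxa3 stood at 35.9 CPM in control, 31.6 CPM in bulk and 31.7 CPM in localized electroporation. The difference between clusters was not tested.

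**Figure D3:**
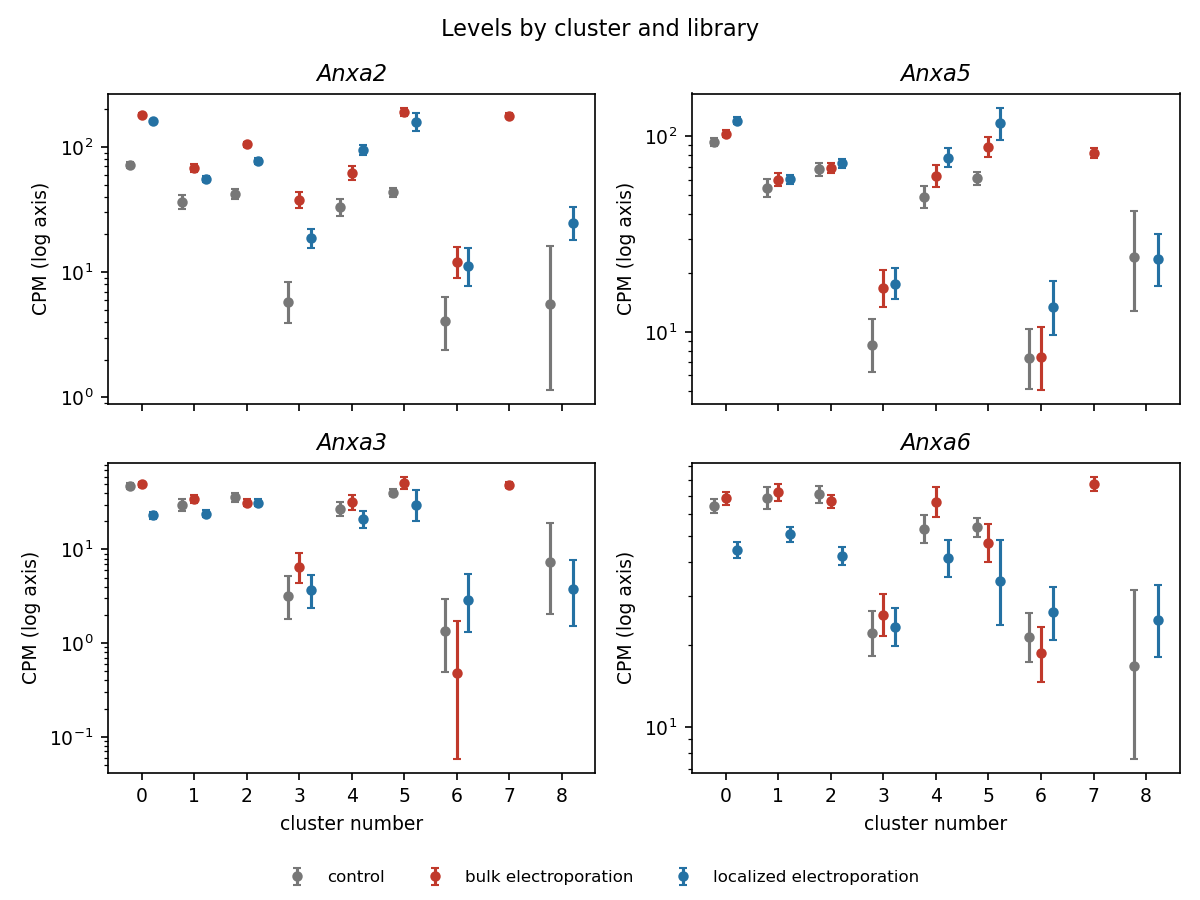
Level in CPM (vertical log axes) of Anxa2, Anxa5, Anxa3 and Anxa6 in each cluster (horizontal axis) of the control (grey), bulk (red) and localized (blue) library, with exact Poisson intervals at 95% as bars, for clusters of at least 50 cells in that library. The oligodendrocyte-lineage clusters 3, 6 and 8 are lowest for each gene, and control is below both treated libraries for Anxa2 in clusters 0 to 6.

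Levels were also set side by side in cells of like depth, since the libraries differed in depth. Among cells of 6000 to 12000 UMIs Anxa2 stood at 43.9 CPM in control, 99.8 CPM in bulk and 103 CPM in localized electroporation. Among cells of 12000 to 25000 UMIs it stood at 47.5, 122.5 and 79.8 CPM, and above 25000 UMIs at 62.3, 162 and 80.5 CPM. The treated libraries were above control in each range, while bulk exceeded localized electroporation only in cells of 12000 UMIs or more. In the shallowest range, 3000 to 6000 UMIs, Anxa2 stood at 15.02, 43.7 and 55.9 CPM. Anxa3 was higher in deeper cells of each library up to 25000 UMIs, and in cells of 6000 to 12000 UMIs it stood at 28.1 CPM in control, 26.5 CPM in bulk and 11.9 CPM in localized electroporation. Anxa7 was highest in localized electroporation in every range, at 14.6 CPM against 7.16 CPM in control and 7.79 CPM in bulk among cells of 6000 to 12000 UMIs, but its interval overlapped those of both other libraries above 25000 UMIs and that of bulk at 3000 to 6000 UMIs.

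**Figure D4:**
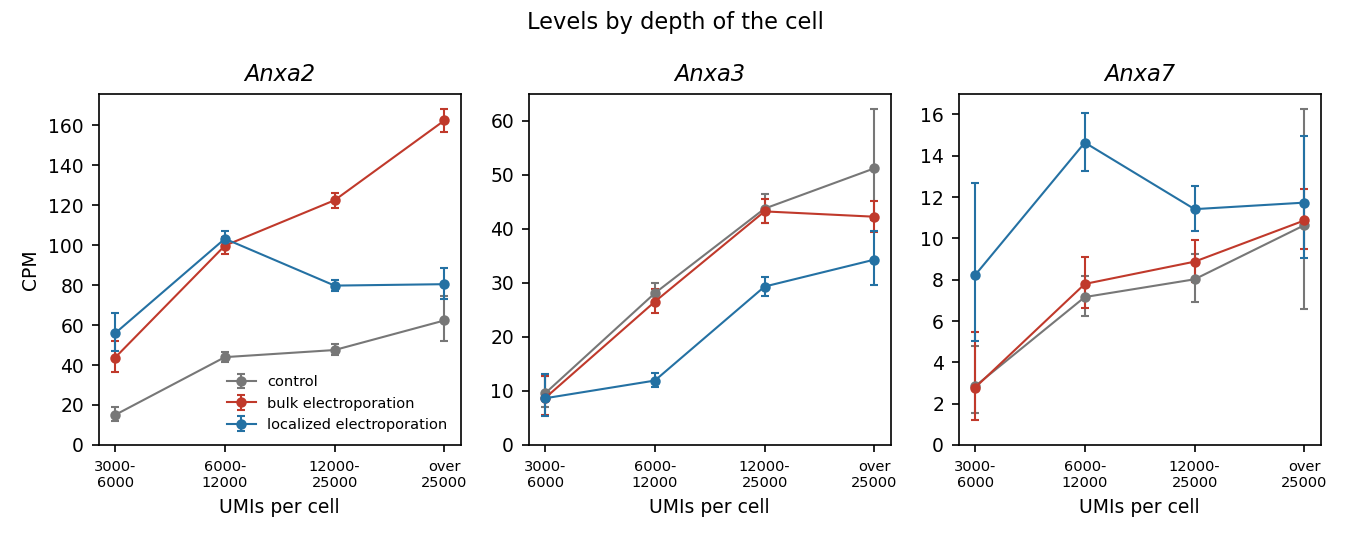
Level in CPM (vertical axes) of Anxa2, Anxa3 and Anxa7 in cells grouped by their total UMIs (horizontal axis), in the control (grey), bulk (red) and localized (blue) library, with exact Poisson intervals at 95% as bars. For Anxa2 bulk and localized electroporation lie together at 6000 to 12000 UMIs (99.8 and 103 CPM) and part above that range.

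Interferon-response transcripts mark a part of the bulk library. Thinned bulk cells holding Rsad2, Oasl1, Isg15, Cxcl10 or Ifit1, 1897 of 5531, had higher levels of each abundant annexin than the other 3634. Anxa2 stood at 155 CPM (151 to 159) in the former and 99.6 CPM (96.6 to 103) in the latter, and Anxa3 at 48.5 and 28.4 CPM. Anxa5 stood at 82.5 and 64.1 CPM, and Anxa6 at 70.6 and 57.9 CPM. Their median depths were 13406 and 10801.5 UMIs. Bulk cells without such a transcript were still above the 43.6 CPM of Anxa2 in the control library. The split was not particular to bulk. In 75 localized cells with such a transcript, Anxa2 stood at 126 CPM against 87.5 CPM without, and Anxa5 at 100 against 74.8 CPM. For localized Anxa3 and Anxa6 the intervals overlapped. In control, where 47 cells held such a transcript, the intervals of each abundant annexin overlapped. Each split is of cells of 1 library, and depth moved with it. Cells of different clusters are mixed in each split, and some of these UMIs may be free RNA. The parts of depth, of cluster and of free RNA were not tested.

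Within each library Anxa2 and Anxa5 tended to be found in the same cells. After thinning, Anxa5 was found in 23.9% of control cells with an Anxa2 UMI and 12.6% of those without, in 27.2% and 14.8% of bulk cells, and in 28.5% and 15.5% of localized cells. For Anxa6 these shares were 18.1% and 13.5% in control, 15.6% and 14.4% in bulk, and 11.02% and 10.76% in localized electroporation. Cells of different clusters are mixed in these shares. Across the 24 points of cluster and library, the Pearson correlation of log2 levels was 0.94 for Anxa3 with Anxa5, 0.90 for Anxa2 with Anxa5 and 0.28 for Anxa1 with Anxa6, the lowest of the 28 pairs. Those points share libraries and depth, so the correlations are descriptions.

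The genes whose levels across the 24 points were most like those of Anxa2, among 5457 genes, were Ociad2 (Pearson r 0.96), S100a10 (0.95), Gng5 (0.94), Gpx8 (0.94) and Cd151 (0.94). For Anxa5 they were Car2 (0.98), S100a11, Mt3, Me1 and Cd44 (0.97 each). For Anxa6 they included Epb41l4a (0.97), Parva (0.96), Hdlbp (0.95) and Pon2 (0.94).

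Genes of annexin partners and of other membrane repair machinery were taken as a list of 50, of which 34 had at least 5 CPM in some library. In bulk over control 29 of the 34 lay above 0, 4 of them by 2-fold or more, 0 lay 2-fold or more below, and the median log2 ratio was 0.26. In localized over control 26 lay above 0, 7 of them by 2-fold or more, 1 lay 2-fold or more below, and the median was 0.24. S100a4, Ahnak, Ahnak2 and Myof were under 5 CPM in control and entered through a treated library, so these counts are no support. Over all 49 list genes in the files, with no minimum, 35 and 33 lay above 0 and 10 and 13 below, with medians of 0.16 and 0.14. Over the 9914 genes with at least 5 CPM in some library, 1.5% and 2.53% were at least 2-fold apart and the medians were 0.10 and 0.12. In those genes 65.2% and 66.4% were above 0. Both comparisons share the control library.

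The scaffold genes Ahnak and Ahnak2 had large ratios in both treated libraries. Ahnak, whose protein binds the complex of annexin A2 and S100a10, stood at 0.324 CPM in control, 7.39 CPM in bulk and 6.51 CPM in localized electroporation, with log2 ratios of 2.66 and 2.50. Ahnak2 stood at 1.07, 7.52 and 5.68 CPM. S100a10 itself stood at 637.5, 877.7 and 990.9 CPM, with log2 ratios of 0.46 and 0.64, far above the level of Anxa2 in each library. S100a11, a partner of annexin A1, stood at 134.1, 235.2 and 175.5 CPM.

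Some partner genes differed between the electroporation methods. The small calcium-binding protein genes S100a6 and S100a4 stood at 94.96 and 14.1 CPM in localized electroporation against 37.2 and 5.21 CPM in bulk, and at 21.0 and 2.65 CPM in control. Myof, a ferlin of membrane repair, stood at 3.95 CPM in control, 9.46 CPM in bulk and 2.10 CPM in localized electroporation, a log2 ratio of 1.75 for bulk over localized electroporation. Ehd4, a gene of membrane recycling, stood at 8.90, 17.3 and 6.34 CPM in the same order, a ratio of 1.32. Syt7, a calcium sensor gene of lysosome exocytosis, stood at 12.5, 15.2 and 4.98 CPM, a ratio of 1.44. It was the list gene that was 2-fold lower in localized electroporation than in control (-1.18), while bulk over control was 0.26. The tetraspanin gene Cd9 stood at 130.2, 158.5 and 301.6 CPM.

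The measured caveola genes were above control in both treated libraries. Cav1 had log2 ratios of 0.84 for bulk and 1.46 for localized over control, and Cavin3 had 0.79 and 1.30. Cavin1, another coat gene, stood at 14.7 CPM in control, 28.9 CPM in bulk and 29.8 CPM in localized electroporation. Ehd2, a caveola-neck protein gene, had 1.16 and 0.37. The 5 measured genes of the ESCRT-III machinery and its recycling enzyme, which pinch off damaged membrane, had small ratios to control. For bulk and localized electroporation these were -0.03 and -0.05 for Chmp4b, -0.03 and -0.03 for Chmp2a, and 0.19 and 0.14 for Chmp3. They were -0.07 and 0.11 for Vps4a and 0.16 and 0.10 for Vps4b. In bulk over localized electroporation the list had 19 of 34 above 0, with 3 higher and 2 lower by 2-fold or more, against 1.95% of the 9914 genes, with a median of 0.01.

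**Figure D5:**
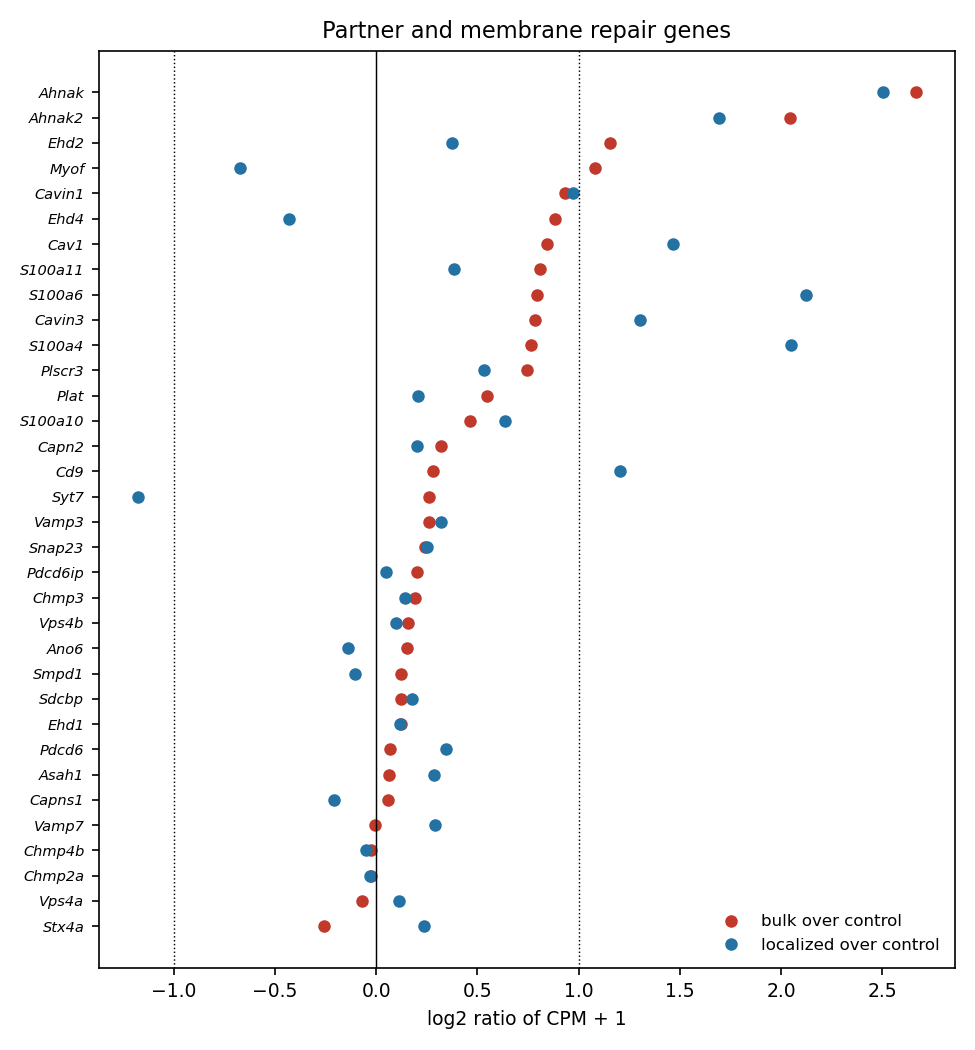
Log2 ratio of CPM + 1 (horizontal axis) of the 34 partner and membrane repair genes with at least 5 CPM in some library, bulk over control (red) and localized over control (blue), ordered by the former; dotted lines mark 2-fold. Ahnak and Ahnak2 lie beyond 2-fold in both, S100a6 and S100a4 in localized over control, and Chmp4b and Chmp2a next to 0.

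Of the other annexin genes in the files, Anxa9 had 10 UMIs in control, against 21 and 13 in the bulk and localized libraries. Anxa8 had 0, 0 and 4 UMIs, Anxa10 had 0, 2 and 0, and Anxa13 had 0, 1 and 0. By a limit of 3 UMIs, a count of 0 allows up to 0.0486 CPM in control, 0.0387 CPM in bulk and 0.0394 CPM in localized electroporation. Anxa11os, annotated on the opposite strand within Anxa11, had 0 UMIs in each library, and the other genes that overlap members on the opposite strand had at most 10.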

How the data were processed

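Single-cell RNA sequencing of transcript 3′ ends was done on 3 libraries, 1 per group. The deposited values were raw UMI counts of each gene in all barcodes, empty ones included, and were not normalized. Cell Ranger 6, Seurat 4.0.4 and the builds GRCm38 and mm10 are named in the submitters' processing notes, and Cell Ranger 4 appears per the file headers; no annotation release is stated in either. The control matrix totalled 74429007 UMIs, the bulk matrix 85743257 and the localized matrix 83803032.

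Cells were kept as the report states, and no doublet caller was run, so doublets remain. UMIs were summed over kept cells and scaled to CPM. For log2 ratios 1 CPM was added to both levels, which understates differences of scarce genes, and 2-fold means at least 1 on this scale. Intervals were exact Poisson for sums, exact conditional binomial for ratios and exact Clopper-Pearson for shares, at 95%. Clusters came from 2000 variable genes per library, scaled within library, 30 principal components, 15 neighbours and Leiden resolution 0.5 (leidenalg 0.10.2, scikit-learn 1.9.0, scipy 1.17.1). The 2-fold calls and the intervals of ratios were tested on simulated counts, and thinning was checked on control cells. The other steps were not tested in this way. Gene positions came from GENCODE vM21 by gene identifier and promoter windows from RefSeq.

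The members and lists were chosen with earlier results of these data known. The text names all 8 members, the other annexins, up to 6 partner genes per comparison with the largest absolute ratio, and the 5 genes most like Anxa2, Anxa5 and Anxa6; some genes that this rule takes are left out of the text. S100a10, S100a11, Cd9 in localized over control, the ESCRT-III genes, Fpr1 and Fpr2 lie outside this rule and were chosen after their values were seen. Among marker lists, ependymal markers had at most 1 member at 5 CPM, neuron markers summed to 237.7, 243.03 and 220.4 CPM (control, bulk and localized electroporation, in that order throughout), oligodendrocyte markers to 73.8, 66.0 and 157.7 CPM, and dividing markers to 1993, 2321 and 1896 CPM. Alternatives of scaling, pseudocount, cell filter, depth, cluster and free RNA were tried.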

Additional observations from a re-analysis of the deposited data

Results flagged for a closer look

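For 3 members the ratio of bulk over localized electroporation had opposite signs in different clusters, with counting intervals on opposite sides of 0. With 1 library per group these differences between clusters were not tested. Anxa2 had a log2 ratio of 0.97 in cluster 3, the oligodendrocyte precursor-like cells, and -0.60 in cluster 4, led by Cdc20 and Cenpa. In cluster 4 Anxa2 stood at 33.1 CPM in control, 62.2 CPM in bulk and 94.9 CPM in localized electroporation, the one cluster of the 7 measured in all 3 libraries whose Anxa2 level was highest in the localized library. Anxa3 had 1.07 in cluster 0 and -1.39 in cluster 6, where it stood at 0.482 CPM in bulk and 2.87 CPM in localized electroporation, both near the lower end of detection. Anxa6 had 0.67 in cluster 4 and -0.48 in cluster 6.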

How the results depend on the processing

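Over 11 alternatives 20 of the 24 member ratios kept their sign. The exceptions were Anxa4 in bulk over control and Anxa11 in all 3 comparisons. Of 264 recomputed ratios, 220 differed from the main ratio by no more than its counting interval reached to either side of its own centre. Those intervals were computed without a pseudocount. The number of members 2-fold or more apart in localized over control, 1 of 8, became 2 with a pseudocount of 0.1 CPM, with at most 25000 UMIs per cell, with cells of 6000 to 20000 UMIs and with thinned cells. Anxa2 lay at the limit, its log2 ratio ranging from 0.92 to 1.14. The number was 0 with a pseudocount of 5 CPM and 3 in the largest cluster, where Anxa3 was past 2-fold lower. In bulk over control it went from 2 to 1 with a pseudocount of 5 CPM, and in bulk over localized electroporation from 0 to 1 with thinned cells (Anxa1) and in the largest cluster (Anxa3). The cause of these changes was not tested. The Anxa2 ratio of bulk over control lay between 1.24 and 1.52, and that of bulk over localized electroporation between 0.18 and 0.52. Anxa1 ratios to control moved most, from 0.40 to 2.42 in bulk and from 0.76 to 3.38 in localized electroporation. These ends were those with pseudocounts of 5 and 0.1 CPM. With the other alternatives the Anxa1 ratios lay between 1.08 and 1.55 in bulk and between 1.87 and 2.33 in localized electroporation. With a minimum of 5 CPM the genes 2-fold apart numbered 148, 247 and 191 in place of 70, 132 and 95 in the 3 comparisons. Median-of-ratios scaling moved the share that was higher among such genes from 54.5% to 44.4% in localized over control. Leaving out cluster 7 changed no member count. Anxa1 rested on only 18 control UMIs.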
